A study of Mus musculus with 6 samples.

Results

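The genes described here encode matrix and matricellular proteins, measured in mouse hematopoietic stem cells (HSCs). They are the SPARC family genes Sparc and Smoc1, the collagen IV chains Col4a1, Col4a2, Col4a5 and Col4a6, the fasciclin domain gene Tgfbi, the fibulin Efemp2 and the galectin Lgals1. These 9 genes, of 26264 in the table, were selected on their measured values, because several were higher in Irf1 knockout (KO) than in wild-type (WT) HSCs. Their differences between genotypes are therefore given as a description with no p-value, and counts of members that met a call describe the fits and test nothing. All 9 were among the 17404 tested genes, those averaging 10 or more normalized counts over the 6 libraries.

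IRF1 is a transcription factor of the interferon response, and the study asked what its loss does to HSCs. KO libraries came from 3 B6.129S2-Irf1 tm1Mak/J mice, in which the gene is disrupted in the whole body, and WT libraries from 3 C57Bl/6 mice. All were untreated females 8 weeks old. The cells were sorted from bone marrow as Lineage-Sca1+cKit+ cells with CD150 and without CD48, and full-length cDNA was amplified from a small number of cells of each mouse. With a whole-body deletion, changes arising in the HSCs and changes arising in their surroundings cannot be told apart. In bulk RNA, more cells of one type and more RNA per cell cannot be told apart either.

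Replicates are numbered 2, 3 and 4, as in the table, within each genotype. The recovered reads per library were 59658080, 45332573 and 43267486 in WT replicates 2, 3 and 4, and 43138521, 57281017 and 45129929 in the KO replicates of the same numbers, so that depth did not follow genotype. One read was worth between 0.823 and 1.13 normalized counts. The targeted gene, Irf1, had normalized counts of 10122, 11120 and 12058 in WT replicates 2, 3 and 4 and of 9267, 9524 and 9287 in KO replicates 2, 3 and 4. Every KO library was below every WT library, by −0.24 ± 0.088 (SE) on the log2 scale, and the difference was not called (adjusted p = 0.170, limma). The count covers the whole gene and does not show which exons were read, so it does not check the disrupted allele.

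Of 8 genes that mark HSCs, all were tested and 1 was called, higher in KO, as were 0.96% of all tested genes. At an unadjusted p under 0.05 in limma, 5 of the 8 were higher and 1 lower in KO. The most abundant was Kit, the stem cell factor receptor, with 82582 ± 1839 (SD, n = 3) normalized counts in WT and 82175 ± 5752 in KO libraries. Fgd5, an exchange factor enriched in HSCs, rose from 3753 ± 206 to 6674 ± 256 (log2 fold change 0.83 ± 0.087, adjusted p = 9.13e-05, limma). Procr, encoding the endothelial protein C receptor (0.52 ± 0.099, adjusted p = 0.0112, limma), and Ly6a, encoding Sca1 (−0.43 ± 0.094, adjusted p = 0.0245, limma), passed the adjusted p but not the fold, and both were named after their values were seen. WT replicate 4 stood apart in neutrophil granule genes. Ltf, encoding lactoferrin, had 2032 normalized counts there and at most 64.0 in the other 5 libraries, and S100a9, encoding a calprotectin subunit, had 1246 there and at most 131 elsewhere, and both were named after their values were seen. Calls without that library are given for the members and, where they changed, for the lists.

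The extracellular matrix is the network of secreted proteins around cells. Basement membranes are its thin sheets, built on laminin and collagen IV, whose chains wind into triple helices in the endoplasmic reticulum and join into a net outside the cell. Matricellular proteins such as SPARC and the SMOCs are secreted as well, but they modulate adhesion, growth factor signaling and matrix assembly rather than serving mainly as structure. In the marrow, much of the matrix is made by stromal cells, osteoblasts, endothelium and megakaryocytes, and HSCs contact it through integrins and other receptors.

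Collagen IV was represented by its 6 chains, of which 4 were members. Col4a1 and Col4a2 encode the chains of the common form of the network, in which they assemble into one trimer. Col4a1 had normalized counts of 5116, 4037 and 4497 in WT replicates 2, 3 and 4 and of 5569, 5784 and 5430.3 in KO replicates 2, 3 and 4. The libraries did not overlap, but the lowest KO library was only 1.06 times the highest WT library, and the log2 difference of 0.30 ± 0.098 (SE) was the smallest of the 9 members. Col4a2 had 5043, 4559 and 5554 in WT and 6936, 6775 and 7991 in KO replicates 2, 3 and 4. Here the gap was wider, with the lowest KO library at 1.22 times the highest WT library and a log2 difference of 0.52 ± 0.10.

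Col4a5 and Col4a6 encode chains of restricted basement membranes. Col4a5 is the gene mutated in most families with Alport syndrome, a disease of the glomerular basement membrane, and Col4a6 encodes a partner chain found in smooth muscle and some epithelia. Col4a5 had normalized counts of 149.8, 121 and 126 in WT replicates 2, 3 and 4 and of 291, 182 and 233 in KO replicates 2, 3 and 4. KO replicate 2 was the high library and KO replicate 3 the low one, and the log2 difference was 0.81 ± 0.26. Col4a6 was the scarcest member, with 23.0, 28.2 and 39.8 in WT and 114, 111 and 155 in KO replicates 2, 3 and 4. It also had the largest relative difference of the 9 members, 4.17 times by the group means and 2.04 ± 0.38 on the log2 scale. Even its lowest KO library was 2.78 times its highest WT library.

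The remaining chains, Col4a3 and Col4a4, which join Col4a5 in the glomerular network, did not show this. Col4a3 had 88.3 ± 29.7 (SD, n = 3) normalized counts in WT and 76.8 ± 40.4 in KO libraries, a log2 difference of −0.30 ± 0.44. Col4a4 had 45.3 ± 12.2 in WT and 38.5 ± 25.6 in KO libraries, a log2 difference of −0.39 ± 0.53. Both overlapped between genotypes and neither was called (adjusted p = 0.822 and 0.801, limma), and their SEs were larger than the differences.

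Ratios of chains within a library do not depend on its scaling, and were taken per kilobase of transcript. Col4a2 over Col4a1 was 1.01, 1.16 and 1.27 in WT replicates 2, 3 and 4 and 1.28, 1.20 and 1.51 in KO replicates 2, 3 and 4. The 2 genotypes overlapped in this ratio. Col4a6 over Col4a5 was 0.151, 0.230 and 0.311 in WT and 0.385, 0.596 and 0.654 in KO replicates 2, 3 and 4, with no overlap. Thus Col4a6 was higher in KO also relative to Col4a5, while Col4a4 over Col4a3 was 0.570 ± 0.048 in WT and 0.537 ± 0.11 in KO libraries and overlapped. These ratios come from the contrast that selected the members and were not tested.

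Sparc encodes the founding member of its family, a collagen-binding glycoprotein that affects how collagen is laid down outside the cell. Its normalized counts were 61.7, 134 and 111 in WT replicates 2, 3 and 4 and 390.2, 259 and 305 in KO replicates 2, 3 and 4. WT replicate 2 and KO replicate 3 were the low libraries of their groups, and the lowest KO library was 1.93 times the highest WT library. The log2 difference was 1.68 ± 0.31, or 3.11 times by the group means. Smoc1, which encodes a basement membrane protein known for antagonizing bone morphogenetic protein signaling, had 60.9, 114 and 110 in WT and 286, 437 and 347 in KO replicates 2, 3 and 4. The order of the KO libraries was the reverse of that for Sparc, with KO replicate 3 the highest and KO replicate 2 the lowest. The log2 difference of Smoc1 was 1.93 ± 0.29, or 3.76 times.

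The other 6 genes listed for the SPARC family were all tested and none was called by limma, edgeR or DESeq2, with 0 in either direction at an unadjusted p under 0.05 in limma. Their median log2 difference was 0.064. Fstl1, a secreted follistatin-like protein, was the most abundant of them at 2740 ± 201 in WT and 2611 ± 25.2 in KO libraries. Smoc2, the closest relative of Smoc1, had 16.8 ± 11.6 in WT and 11.2 ± 6.24 in KO libraries. Sparcl1, the closest relative of Sparc, had 13.1 ± 0.813 in WT and 12.8 ± 4.95 in KO libraries. At such levels the SEs of the log2 differences, 0.75 for Smoc2 and 0.67 for Sparcl1, leave room for sizable differences in either direction.

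Tgfbi encodes a secreted protein with fasciclin domains that binds collagens and integrins and is induced by TGF-beta in many cells. Its normalized counts were 1283, 1483 and 1240.4 in WT replicates 2, 3 and 4 and 2584, 2143 and 2616 in KO replicates 2, 3 and 4. The libraries of each genotype lay close together, within 1.20 times in WT and 1.22 times in KO, and the log2 difference was 0.87 ± 0.12. Postn, encoding periostin, its closest relative, had 40.7 ± 24.1 in WT and 73.3 ± 33.5 in KO libraries. That log2 difference of 0.92 ± 0.51 was similar in size to that of Tgfbi, but the libraries overlapped and it was not called (adjusted p = 0.416, limma). The stabilins Stab1 and Stab2, scavenger receptors with fasciclin domains, were at 105 ± 52.6 and 149.6 ± 46.6 in WT and at 78.7 ± 40.8 and 136 ± 55.9 in KO libraries, respectively.

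Efemp2 encodes fibulin-4, which is needed for elastic fibre assembly and for crosslinking by lysyl oxidase. It had normalized counts of 68.3, 89.0 and 151 in WT replicates 2, 3 and 4 and of 229, 177 and 310.4 in KO replicates 2, 3 and 4. Replicate 4 was the highest of both groups, and WT replicate 4 reached within 1.18 times of the lowest KO library. The log2 difference was 1.25 ± 0.33. Of the 5 other fibulins tested, none was called by limma, edgeR or DESeq2, and 0 were higher and 1 lower at an unadjusted p under 0.05 in limma. That gene, Fbln1, had 165 ± 37.9 in WT and 101 ± 17.7 in KO libraries (log2 fold change −0.69 ± 0.29, adjusted p = 0.247, limma). Efemp1 had 44.8 ± 17.7 and 46.0 ± 25.6. Hmcn1, a very large fibulin of cell junctions, had 105 ± 21.3 and 100.2 ± 47.8.

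Lgals1 encodes galectin-1, a lectin that is secreted without a signal peptide and crosslinks glycans on matrix and cell surface proteins. Its normalized counts were 704, 417 and 676 in WT replicates 2, 3 and 4 and 1014, 889 and 1077 in KO replicates 2, 3 and 4. WT replicate 3 was the low library. The log2 difference was 0.76 ± 0.19, and it fell to 0.52 without WT replicate 3. Lgals9, encoding galectin-9 and the most abundant galectin, had 35402 ± 3633 in WT and 29723 ± 1146 in KO libraries, a log2 difference of −0.25 ± 0.095 that was not called (adjusted p = 0.194, limma). Lgals8 had 5617 ± 459 and 4802 ± 286, and Lgals3 187 ± 74.5 and 260.1 ± 105, and neither was called. Of the 5 other galectins tested, 0 were called by limma, edgeR or DESeq2, and 0 higher and 2 lower had an unadjusted p under 0.05 in limma.

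**Figure D1:**
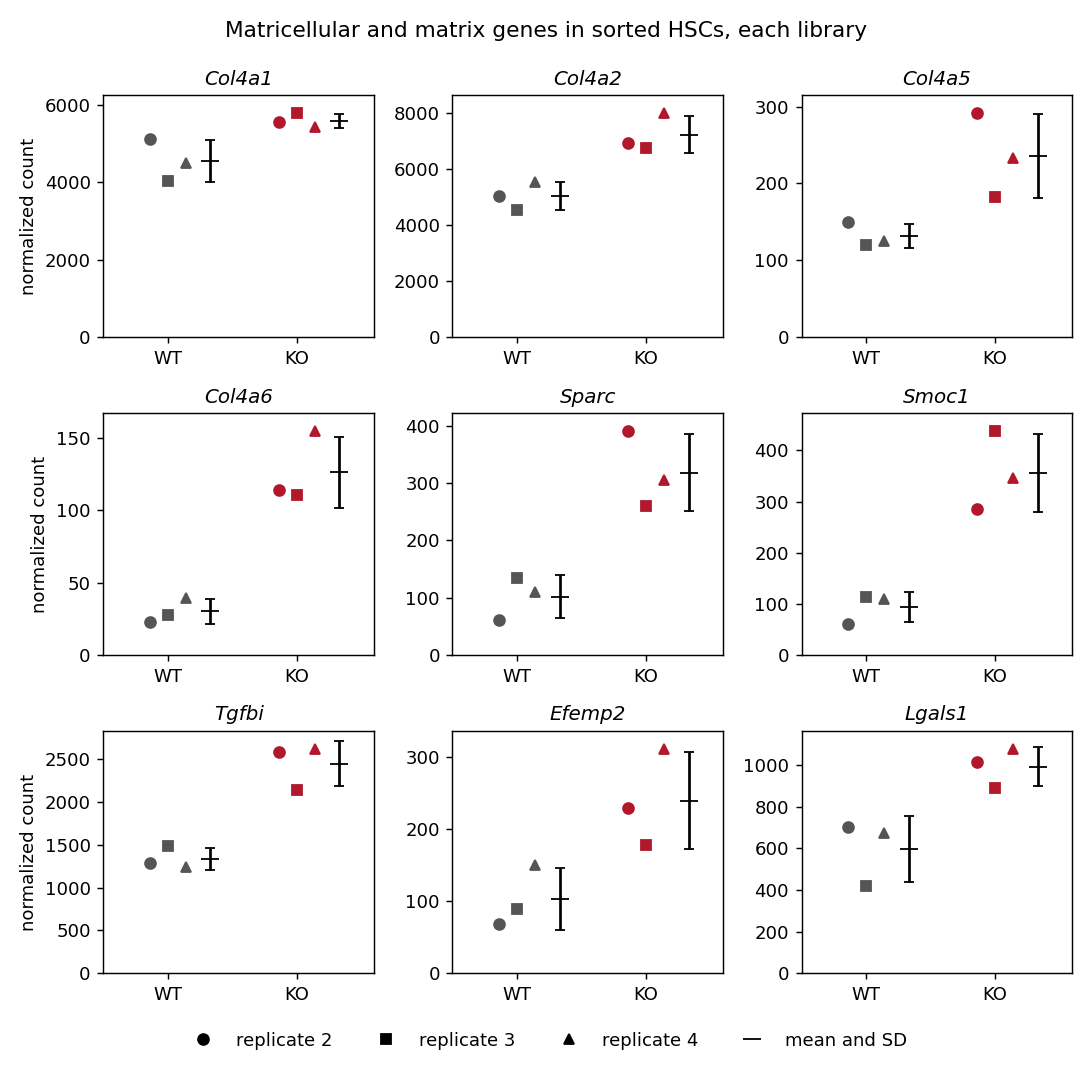
Normalized counts (y axis, linear and from 0) of the 9 members in WT and KO HSCs (x axis), with 1 symbol for each library, its shape giving the replicate number, and the mean and SD (n = 3) as a bar at the right of each group. In each panel the 3 KO libraries lie above the 3 WT libraries, by the narrowest margin for Col4a1 (lowest KO library 1.06 times the highest WT library) and the widest for Col4a6 (2.78 times).

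Levels of different genes were compared per kilobase of the longest annotated transcript. In WT HSCs, Col4a2 was at 783 ± 77.2 (SD, n = 3) normalized counts per kilobase, Lgals1 at 748 ± 198 and Col4a1 at 688 ± 81.9, and these 3 did not differ beyond their spread. Tgfbi followed at 450.1 ± 43.7. A wide step separated it from Efemp2 at 57.6 ± 24.0, Sparc at 44.4 ± 16.1 and Smoc1 at 27.1 ± 8.42, which overlapped with their neighbours in the order. Col4a5 was at 20.2 ± 2.38 and overlapped with Smoc1, and Col4a6 was lowest at 4.56 ± 1.29, below every other member in every WT library.

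Set against the 15433 tested genes with a transcript length, of 17404, the WT levels of Col4a2, Lgals1 and Col4a1 lay at the 63.6, 62.8 and 60.8 percentiles and that of Tgfbi at the 52.9 percentile. Efemp2, Sparc, Smoc1 and Col4a5 lay at the 30.0, 27.6, 22.9 and 19.8 percentiles, and Col4a6 at the 3.34 percentile. The members thus spanned from near the bottom of the tested range to somewhat above its middle in WT HSCs. Among their relatives, Fstl1 was at 723 ± 53.2 per kilobase of transcript, as high as the leading collagen chains, whereas Lgals9 was far above any member at 22322 ± 2291. Per kilobase of coding sequence, Fstl1 was above those chains, at 2975 ± 219 against 986 ± 97.2 for Col4a2. Col4a4 at 5.80 ± 1.56 overlapped with Col4a6, and Col4a3 at 10.3 ± 3.47 lay above it.

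In KO HSCs the order was Lgals1 at 1241 ± 119 per kilobase, Col4a2 at 1122 ± 102, Col4a1 at 846 ± 26.9 and Tgfbi at 825 ± 89.1, followed by Sparc at 138 ± 28.9, Efemp2 at 134 ± 37.7 and Smoc1 at 102 ± 21.8. Col4a5 at 36.0 ± 8.32 and Col4a6 at 19.0 ± 3.69 were again last. Tgfbi came within the spread of Col4a1, which it had not in WT HSCs. Per kilobase of coding sequence, Lgals1 was first in WT as well, at 1467 ± 387 against 986 ± 97.2 for Col4a2, and Sparc and Efemp2 changed places.

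Of the 9 members, 5 met the call used for all genes (adjusted p under 0.05 in limma and an absolute log2 fold change above 0.58), namely Sparc, Smoc1, Col4a6, Tgfbi and Lgals1. Over all tested genes, 167 were called higher in KO (0.96%) and 166 lower (0.954%). All 9 members had every KO library above every WT library, as did 1853 of the tested genes (10.6%), while 1614 (9.27%) had every KO library below every WT library. Since the members were selected on this contrast, nothing is read from these counts. Just inside the call was Lgals1, and just outside it were Col4a2, for its size, and Efemp2. The median log2 difference of the members was 0.87, against −0.0028 over all tested genes.

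Which members met the call changed with the libraries used and with the fit. Without WT replicate 4, the library with the granule genes, 7 members met it, with Col4a2 at 0.59 and Efemp2 at 1.57 added. Without KO replicate 2, 3 met it, with Sparc (1.52) and Lgals1 (0.75) lost, and without KO replicate 4, 3 met it, with Col4a6 (1.89) and Lgals1 (0.70) lost. Lgals1 was also lost without KO replicate 3, where its log2 difference was 0.84, and without WT replicate 3, where it was 0.52. Calls over all tested genes moved the same way, with 305 higher without WT replicate 4, 104 without KO replicate 2 and 83 without KO replicate 4, against 167 with all libraries. On the recovered reads, edgeR called the same 5 members, at 0.948% of tested genes called higher, and DESeq2 called 7, adding Col4a5 and Efemp2, at 1.66%. With a prior variance that does not follow the intensity, limma called 0 members and only 7 genes higher in all, although the log2 differences were those given above.

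KO replicate 3 was the lowest KO library for 7 of the 9 members, the exceptions being Smoc1 and Col4a1, in which it was the highest. KO replicate 4 was the highest for 5 members. In WT, the lowest values fell in replicate 2 for 4 members and in replicate 3 for another 4. Relative spread in WT was widest for Efemp2, with an SD of 41.7% of the mean, and for Sparc at 36.2%. It was narrowest for Tgfbi at 9.70% and Col4a2 at 9.86%.

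For each member, the non-member genes whose log2 values followed it most closely over the 6 libraries were sought among all tested genes. As 6 points over 2 genotypes set these correlations, they describe the libraries and no more. Meltf (Pearson r = 0.997) and Agrp (0.995) were closest to Sparc, and Unkl (0.997) and Sema4c (0.996) to Smoc1. Aldoc (0.995) and Zfp937 (0.994) were closest to Col4a1, and Mtus1 (0.997) and Enah (0.995) to Col4a2. Fbxl20 (0.995) and Sema6c (0.991) were closest to Col4a5, and Map3k3 (0.998) and Snx20 (0.997) to Col4a6. Ccdc171 (0.994) and Garre1 (0.991) were closest to Tgfbi, Klrb1f (0.993) and Trim25 (0.991) to Efemp2, and Colca2 (0.996) and Slco2b1 (0.995) to Lgals1. No gene was named for more than 1 member, and none of the 18 was on a matrix list. Of these genes, Mtus1 (log2 fold change 0.67 ± 0.15) and Sema6c (0.72 ± 0.17) were themselves called higher in KO.

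Around the members, 165 other genes of 13 matrix lists were in the table and 150 were tested. The lists, like the members, were chosen with earlier results of these data known. Of these 150, 6 rose in KO HSCs and 0 fell by limma, while 26 were higher and 10 lower at an unadjusted p under 0.05, as were 1459 and 1404 of all 17404 tested genes. By edgeR the counts were 6 and 0, and by DESeq2 10 and 1. The shares of all tested genes called by limma were 0.96% higher and 0.954% lower. The median log2 difference of the 150 genes was 0.083, with 85 (56.7%) above 0, against −0.0028 and 49.6% over all tested genes. Without WT replicate 4, 10 rose, while calls of higher genes over all tested genes went from 167 to 305, with Lama5 (log2 fold change 1.72), Hspg2 (1.51), Col11a2 (0.81), Tnxb (3.03) and Tgfb3 (0.81) added and Smad7 (0.60) lost. Of these, Lama5, Hspg2, Tnxb and Tgfb3 were named after their values were seen.

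Among 19 other basement membrane genes, 1 rose by limma and edgeR and 2 by DESeq2, with 5 higher and 0 lower at an unadjusted p under 0.05 in limma. The gene called by limma was Lamb2, encoding the laminin beta chain of neuromuscular and glomerular basement membranes, which went from 749 ± 167 to 1827 ± 424 normalized counts (log2 fold change 1.29 ± 0.18, adjusted p = 0.00155, limma). Egfl7, a secreted vascular protein, passed the adjusted p but not the fold (0.38 ± 0.089, adjusted p = 0.0324, limma). Lamc1, the common laminin gamma chain, was at 1412 ± 94.7 in WT and 1395 ± 51.9 in KO libraries, and Col18a1, the source of endostatin, at 1539.8 ± 58.7 and 1539.5 ± 239.9. The median log2 difference of this list was 0.38. The share of all tested genes called higher was 0.96% by limma and 1.66% by DESeq2.

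The collagens outside type IV had a median of −0.032, and of 20 tested, 0 were called by limma or edgeR and 1 higher by DESeq2, with 3 higher and 1 lower at an unadjusted p under 0.05 in limma. Col16a1, a fibril-associated collagen, was the most abundant at 7114 ± 155 in WT and 8001 ± 724 in KO libraries. Col1a2, a chain of type I collagen, was at 1098 ± 368 and 1528 ± 396. Col11a2, a chain of cartilage collagen, was at 447 ± 104 and 691 ± 162.9 (log2 fold change 0.62 ± 0.20, adjusted p = 0.125, limma). Of 24 tested genes for collagen synthesis and crosslinking, 0 were called by limma or edgeR and 1 higher by DESeq2, and 4 higher and 3 lower had an unadjusted p under 0.05 in limma. P4hb, a subunit of the prolyl hydroxylase that stabilizes the triple helix, was at 29827 ± 4268 in WT and 24291 ± 2877 in KO libraries. Colgalt1, which glycosylates collagen, was at 10978 ± 222 and 11576 ± 969, and P3h3, a prolyl 3-hydroxylase family gene, at 5493 ± 668 and 5542 ± 489.

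The other matricellular genes had a median of −0.13, and of 13 tested, 0 were called by limma, edgeR or DESeq2, with 1 higher and 0 lower at an unadjusted p under 0.05 in limma. Thbs1, encoding thrombospondin-1, was split across the genotypes. It had 5425 and 6219 normalized counts in WT replicates 3 and 4 and 5057 in KO replicate 4, but 1526 in WT replicate 2 and 1227 and 1212 in KO replicates 2 and 3. Spp1, encoding osteopontin, was at 169.9 ± 20.3 in WT and 151 ± 7.10 in KO libraries, and Ccn3 at 114 ± 50.01 and 232 ± 229.

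Of 10 tested elastic fibre genes, 0 were called by limma or edgeR and 1 lower by DESeq2, with 3 higher and 2 lower at an unadjusted p under 0.05 in limma. Ltbp3, which tethers latent TGF-beta to the matrix, passed the adjusted p but not the fold (0.33 ± 0.080, adjusted p = 0.0407, limma). Emilin1, a microfibril-associated glycoprotein, was the most abundant at 24314 ± 2959.9 in WT and 25370.0 ± 222 in KO libraries, and Emilin2 was at 1536 ± 33.7 and 2074 ± 386. Fbn1, encoding fibrillin-1, was chosen after its values were seen, because it was the gene called lower by DESeq2. It had 218 ± 23.3 in WT and 99.6 ± 48.1 in KO libraries (log2 fold change −1.24 ± 0.35, adjusted p = 0.0751, limma).

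Genes that act on the matrix included 3 that rose among 18 tested proteases and inhibitors by limma and edgeR, and 4 by DESeq2. In this list, 5 were higher and 0 lower at an unadjusted p under 0.05 in limma. Over all tested genes, limma called 0.96% higher. Mmp2, a gelatinase that also cleaves collagen IV, went from 769 ± 254 to 1838 ± 344 normalized counts (log2 fold change 1.30 ± 0.21, adjusted p = 0.00414, limma). Mmp14, the membrane-bound protease that activates pro-MMP2, went from 1497 ± 55.3 to 2388 ± 199 (0.67 ± 0.10, adjusted p = 0.00286, limma). Timp2, the inhibitor that takes part in that activation, went from 6359.7 ± 226 to 9763 ± 423 (0.62 ± 0.083, adjusted p = 9.18e-04, limma). Timp3, which binds to the matrix, was at 3435 ± 1165 in WT and 3215 ± 302 in KO libraries.

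Among 17 tested matrix receptors, 1 rose by limma, edgeR and DESeq2. In this list, 3 were higher and 0 lower at an unadjusted p under 0.05 in limma. The share of all tested genes called higher by limma was 0.96%. Itgb5, the integrin subunit that pairs with alpha V to bind vitronectin, went from 544 ± 53.5 to 1099 ± 169 normalized counts (log2 fold change 1.01 ± 0.15, adjusted p = 0.00204, limma). The abundant subunits were level, with Itgb1, the common beta chain of collagen and laminin receptors, at 21476 ± 1419 in WT and 21091 ± 1177 in KO libraries. Itga6, its partner in laminin binding, was at 11308 ± 236 and 11533 ± 206, and Itgb3 at 7021 ± 1531 and 7045 ± 591. Among 8 tested TGF-beta ligands and targets, 1 rose, the inhibitory Smad7, from 609 ± 60.03 to 935 ± 132 (0.61 ± 0.15, adjusted p = 0.0405, limma). By edgeR and DESeq2, 1 of this list rose as well, and 2 were higher and 1 lower at an unadjusted p under 0.05 in limma. The call of Smad7 was lost in 5 of the 6 fits that left out 1 library, with log2 fold changes of 0.60, 0.52, 0.69, 0.55 and 0.60 without KO replicates 2 and 4 and WT replicates 2, 3 and 4. Tgfb1, encoding the main ligand, was at 7982 ± 770 in WT and 6187 ± 612 in KO libraries (−0.37 ± 0.10, adjusted p = 0.0681, limma), and Skil at 1250.2 ± 91.2 and 1227 ± 135.

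**Figure D2:**
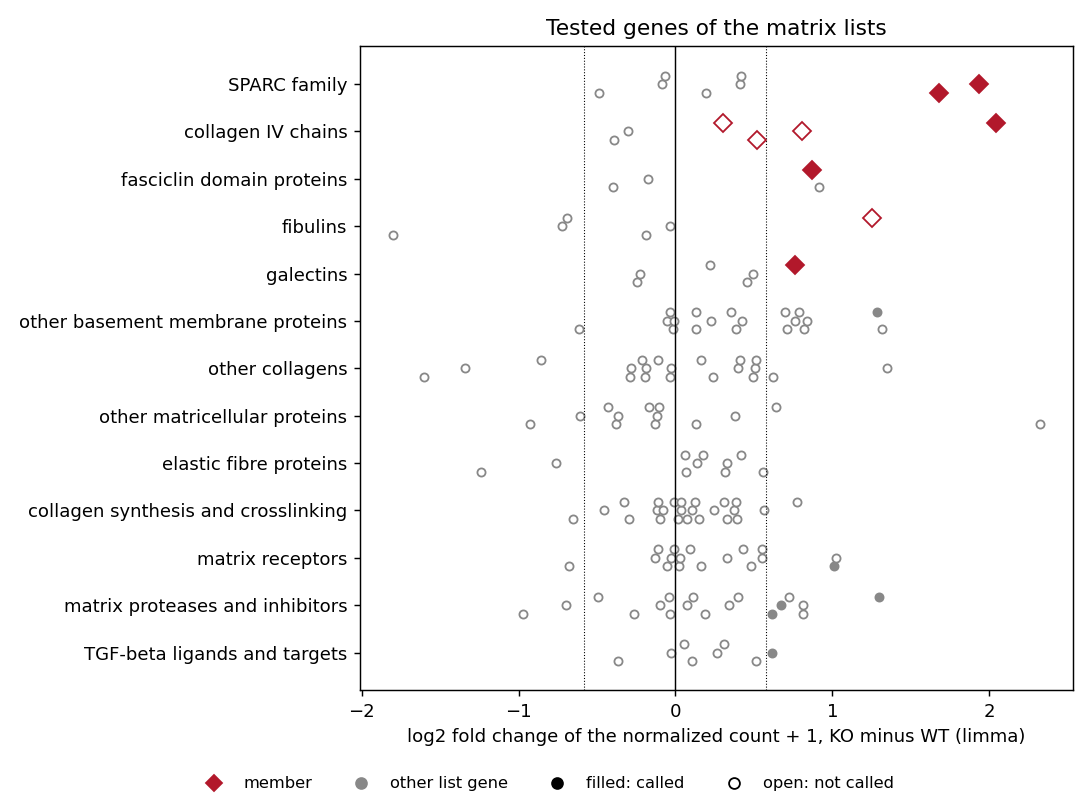
Log2 fold change, KO minus WT (x axis), of each tested gene of the 13 matrix lists (y axis, points offset within a row for legibility), with the 9 members as diamonds, other genes as circles, called genes filled and dotted lines at −0.58 and 0.58. Of the 150 other genes, 6 are called, all higher, and the members, which were selected for being higher, lie between 0.30 and 2.04.

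Several members are made abundantly by other cells of the marrow, so markers of those cells were read in the same libraries. Of 12 markers of stroma and osteoblasts, 9 were tested and 0 were called by limma, edgeR or DESeq2, with 3 higher and 0 lower at an unadjusted p under 0.05 in limma. Their summed normalized counts were 2175, 2822 and 2685 in WT replicates 2, 3 and 4 and 3793, 3009 and 3859 in KO replicates 2, 3 and 4, and 3 of the 12 genes, the collagens, are also on a matrix list. The most abundant was Pdgfrb, at 1205 ± 177 in WT and 1708 ± 222 in KO libraries. Of the others, Bglap, encoding osteocalcin, was at 5.19 normalized counts or less, Lum at 2.15 or less and Dcn at 20.3 or less in every library, while Cxcl12 was at 27.0 to 116, Lepr at 6.05 to 62.0, Pdgfra at 37.2 to 63.5, Col1a1 at 22.2 to 59.6 and Col3a1 at 10.1 to 49.5 in WT and 32.8 to 73.7 in KO libraries. Col3a1 (log2 fold change 1.35 ± 0.60, adjusted p = 0.284, limma) was, with Pdgfrb and Col1a2, one of the 3 higher at an unadjusted p under 0.05. These 8 genes were named after their values were seen.

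Of 8 endothelial markers, 7 were tested and 0 were called by limma, edgeR or DESeq2, with 2 higher and 1 lower at an unadjusted p under 0.05 in limma. Their sums were 2465, 2593 and 2823 in WT and 3444, 3646 and 3672 in KO replicates 2, 3 and 4. Emcn, encoding endomucin, which HSCs also express, was the most abundant at 1398 ± 102 in WT and 2084 ± 122 in KO libraries, and it passed the adjusted p but not the fold (0.576 ± 0.107, adjusted p = 0.0101, limma). Kdr, encoding a VEGF receptor and named after its values were seen, was at 711 ± 221 and 1046 ± 168 and was called higher without WT replicate 4. Sox17 was at 0 in 5 of the 6 libraries, and Cdh5, encoding VE-cadherin, was between 4.11 and 29.0, and both were named after their values were seen. The stromal and endothelial sums were higher in every KO library than in any WT library, as the members were. Emcn and Kdr made up most of the endothelial sum and Pdgfrb and Col1a2 most of the stromal sum. All 4 were higher in KO at an unadjusted p under 0.05 in limma. Flt4, the endothelial marker lower at that p, was at 107 ± 22.7 in WT and 60.5 ± 20.3 in KO libraries. Its log2 fold change was −0.85 ± 0.37 (adjusted p = 0.271, limma), and it was named after its values were seen. Without Emcn and Kdr, endothelial sums were 486, 480 and 590 in WT and 484, 473 and 415 in KO replicates 2, 3 and 4. Without Pdgfrb and Col1a2, stromal sums were 193, 208 and 372 in WT and 355, 259 and 337 in KO replicates 2, 3 and 4. Both of these remaining sums overlapped between genotypes, the stromal ones only through WT replicate 4. Without that library, 4 of the 9 tested stromal markers were higher and 0 lower at an unadjusted p under 0.05 in limma. Of these 9, 0 were called. The part of stromal and endothelial cells in the members' differences was not tested.

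Sparc is also made by megakaryocytes and carried in platelets. Of 8 megakaryocyte and platelet markers, 5 fell in KO HSCs and 0 rose by limma, with 0 higher at an unadjusted p under 0.05, and edgeR and DESeq2 likewise called 5 lower and 0 higher. The share of all tested genes called lower by limma was 0.954%. Pf4, encoding platelet factor 4, went from 7315 ± 464 to 3523 ± 1138 (log2 fold change −1.11 ± 0.18, adjusted p = 0.00334, limma). The others that fell were Gp1bb (−0.90), Treml1 (−0.77), Gp1ba (−0.69) and Gp5 (−0.64), and Itgb3 was the most abundant of the list. The sums were 28248, 34603 and 26900.2 in WT and 22101, 17970 and 22820 in KO replicates 2, 3 and 4. The part of these cells in the values of Sparc was not tested.

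Markers of the remaining cell types were read in the same way. Of 10 monocyte and macrophage markers, 0 were called by limma, edgeR or DESeq2 and 0 had an unadjusted p under 0.05 in limma, and the sums were 3313, 4499.9 and 3578 in WT and 4108.5, 3502 and 4131 in KO replicates 2, 3 and 4. Cd68 was the most abundant, at 643 ± 82.5 and 783 ± 53.8. Of 8 neutrophil and granule genes, 0 were called by limma, edgeR or DESeq2, and 1 was higher and 0 lower at an unadjusted p under 0.05 in limma. That gene was Prtn3, encoding proteinase 3, at 5847 ± 876 in WT and 8429 ± 1259 in KO libraries (0.53 ± 0.12, adjusted p = 0.0334, limma). The sums were 6634, 5187 and 11749.8 in WT and 8090.1, 8254 and 10704 in KO replicates 2, 3 and 4, so that WT replicate 4 lay above and the other WT libraries below every KO library, and without it Prtn3 was called higher (0.60 ± 0.13, adjusted p = 0.0185, limma). Of 6 tested B and T cell markers, 0 were called by limma, edgeR or DESeq2 and 0 had an unadjusted p under 0.05 in limma, with sums from 2896 to 3388 and Cd79b as the most abundant gene.

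The members lie on 7 chromosomes in the RefSeq annotation (GRCm38.p6), and Sparc is on chromosome 11 with Irf1. Of the 51 annotated genes between Irf1 and Sparc, 24 were tested, of which 1 rose (Gm2a) and 2 fell (Gm12216 and Lyrm7), and their median log2 difference was −0.0020. These 3 genes were named after their values were seen. Over all tested genes, limma called 0.96% higher and 0.954% lower. The KO strain carries a targeted allele of 129 origin on this chromosome, and whether neighbouring sequence of that origin has a part in the values of Sparc was not tested.

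Col4a1 and Col4a2 lie head to head on chromosome 8, with annotated starts that overlap by 22 bases, and Col4a5 and Col4a6 lie head to head on chromosome X, with 1343 bases from one start to the other. Use of strand in the counting is not given in the sources used here. Reads from the overlapping ends of Col4a1 and Col4a2 could thus be split or lost, and the counts of both are uncertain to that extent. Per kilobase in WT, Col4a1 and Col4a2 were among the 3 most abundant members, and Col4a5 and Col4a6 were the scarcest.

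Promoter windows from RefSeq, of 250 bases before an annotated start, were present for 7 of the 9 members. They were searched on both strands for GAAANNGAAA, a pattern bound by interferon regulatory factors, for GGGCGG, the GC box, and for CCAAT and TATAAA. Of all 32851 windows, 2.98% held GAAANNGAAA, 32.7% GGGCGG, 33.8% CCAAT and 12.4% TATAAA. Among the members, Tgfbi alone held GAAANNGAAA, as GAAACTGAAA from 194 to 185 bases before the start. TATAAA was in none of the members' windows. GGGCGG or its reverse complement CCGCCC was found in those of Col4a2, Col4a5, Col4a6, Tgfbi and Efemp2, and CCAAT or ATTGG in those of Col4a1, Col4a2 and Col4a5. Efemp2 had several windows, some overlapping, with 2, 5 and 5 GGGCGG or CCGCCC matches, and the other members had a single window each. Of the tested genes with a window, 4 of 122 called higher and 26 of 117 called lower held GAAANNGAAA, against 3.18% of all 13682. Of these 13682 genes, which include the 7 members with a window, 56.0% held GGGCGG, 39.6% CCAAT and 9.28% TATAAA. A match is a run of letters and not a shown binding site.

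The windows of Tgfbi, of the head-to-head genes Col4a5 and Col4a6 and of Sparc are shown, as examples with and without the patterns. Each runs 5′ to 3′ on the gene's own strand in GRCm38.p6, with GAAANNGAAA and GGGCGG or CCGCCC matches in capitals. That of Tgfbi is chr13:56609336-56609585 on the plus strand, that of Col4a5 chrX:141475169-141475418 on the plus strand, that of Col4a6 chrX:141474077-141474326 on the minus strand and that of Sparc chr11:55420081-55420330 on the minus strand.
Tgfbi: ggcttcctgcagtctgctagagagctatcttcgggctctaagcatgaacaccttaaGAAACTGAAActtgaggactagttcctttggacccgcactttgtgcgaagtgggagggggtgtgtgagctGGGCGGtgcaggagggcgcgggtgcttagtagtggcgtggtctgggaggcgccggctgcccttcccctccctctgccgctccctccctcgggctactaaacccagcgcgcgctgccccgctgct
Col4a5: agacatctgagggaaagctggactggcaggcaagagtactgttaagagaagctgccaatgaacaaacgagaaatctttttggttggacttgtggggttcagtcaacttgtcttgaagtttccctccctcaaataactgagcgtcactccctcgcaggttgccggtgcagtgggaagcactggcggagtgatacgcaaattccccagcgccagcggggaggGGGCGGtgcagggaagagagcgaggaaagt
Col4a6: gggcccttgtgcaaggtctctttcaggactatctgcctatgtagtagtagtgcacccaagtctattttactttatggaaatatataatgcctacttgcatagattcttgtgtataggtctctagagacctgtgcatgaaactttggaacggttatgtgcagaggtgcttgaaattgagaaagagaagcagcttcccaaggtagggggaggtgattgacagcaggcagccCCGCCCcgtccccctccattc
Sparc: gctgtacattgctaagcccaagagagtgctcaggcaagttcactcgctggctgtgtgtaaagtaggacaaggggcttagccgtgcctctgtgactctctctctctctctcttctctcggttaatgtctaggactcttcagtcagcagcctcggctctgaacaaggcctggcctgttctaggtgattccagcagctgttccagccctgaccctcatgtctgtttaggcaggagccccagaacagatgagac
Tgfbi has 1 GC box besides the interferon-type pattern, and the window is 62.4% G or C. In Col4a5 the single GC box begins 30 bases before the start and in Col4a6 it begins 21 bases before it. Sparc holds none of the 4 patterns, and its window is 54.0% G or C, as is that of Col4a5, while that of Col4a6 is 47.6%.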

How the data were processed

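RNA-seq values of 6 HSC libraries were analysed. By the submitters' processing notes, the authors used Trim Galore for trimming and HISAT2 for alignment to mm39, and the column headers name htseq-count for counting. Versions of these are not given in the sources used here. The deposited signal was normalized counts. Dividing each library by its lowest value above 0 gave whole numbers (tolerance 0.01) for 100% of values, taken as recovered reads. As the deposited values are normalized, the test was limma 3.58.1 in R 4.3.3 on log2(value + 1), with a trended prior, for genes averaging 10 or more, adjusted by Benjamini-Hochberg. A call took an adjusted p below 0.05 with a log2 change beyond 0.58 either way. The pseudocount makes changes of low genes smaller. edgeR 4.0.16 and DESeq2 1.42.0 on recovered reads were alternatives, as were other pseudocounts, filters and normalizations, a replicate block and leaving out each library. The fits were tried on simulated data.

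Lengths came from GENCODE vM1 (NCBIM37) for 15433 tested genes (88.7%), 13862 matched by symbol and 1571 by an older symbol. RefSeq (GRCm38.p6) gave promoter windows, gene order and synonyms. Named genes were Irf1, the members, called genes and the 3 most abundant genes of each matrix list, fixed relatives of members, the 2 most correlated genes per member, and the called and most abundant genes of each marker list. Genes outside this rule are marked in the text as named after their values were seen. Members and lists were chosen with earlier results of these data known. Python 3.11.15, pandas 2.3.3, NumPy 2.4.6 and matplotlib 3.10.9 were used for levels, promoters and figures.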

Additional observations from a re-analysis of the deposited data

How the results depend on the processing

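Over 16 alternatives for each member, the log2 difference stayed above 0 in all 144 fits, a direction that the choice of members fixes. The call stayed on the same side in 127, was lost in 11 and gained in 6. Without an intensity trend, limma called 7 genes higher, 33 lower, 0 members and 0 other matrix list genes higher. DESeq2 called 289 genes higher, and 10 matrix list genes higher and 1 lower. Quantile normalization gave 1 matrix list gene lower. With single libraries left out, genes called higher ranged from 83 to 305 and lower from 105 to 265, members called from 3 to 7, and matrix list genes called higher from 5 to 10 and lower from 0 to 1. The cause of these shifts was not tested. The other pseudocounts and filters, median centring and edgeR kept each count within 1.5 times.

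With the replicate block, 219 genes were called higher and 196 lower, 6 members (Efemp2 added), and 10 matrix list genes higher and 1 lower. Deviations of the libraries with the same number correlated by −0.0940, 0.246 and 0.147 for replicates 2, 3 and 4, and KO replicate 2 and WT replicate 4 correlated by 0.251, so not every library correlated best with its own number. The replicates share only a number.

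Per kilobase of coding sequence, WT levels of 8 members moved by more than 1 SD, as coding sequences are shorter.

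Depth limits the scarcest genes. For Col4a6 in its lowest library, WT replicate 2, 1 read was worth 0.823 normalized counts of its 23.0. Reads carry no molecular identifiers, so counting error understates their uncertainty. With 3 mice a group, limma p-values rest on the spread of those mice and on a prior variance taken from genes of similar abundance. For Col4a6 the SE was 0.38 with that trended prior and 0.24 without the trend.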
